A study of Homo sapiens with 6 samples.

Results

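Deubiquitinating enzymes were examined in 786-O cells after knockdown of ALYREF. The members were all genes in both deposited result tables whose symbol begins with USP, UCHL or OTUB and a number, or with OTUD, except USP1 and USP18, together with CYLD, BRCC3, STAMBP and ATXN3. They came to 62 of 11679 genes: 57 protein-coding genes of the deubiquitinase families and 5 other rows that the symbol rule takes. Those 5 are USP6NL, which encodes a GTPase-activating protein of Rab5, the noncoding RNAs OTUD6B-AS1, USP27X-AS1 and USP46-AS1, and the pseudogene USP32P2.

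Ubiquitin is a small protein that is joined to other proteins, often as chains, and marks them for the proteasome, for lysosomal sorting or for a role in signalling. Deubiquitinases are the proteases that cut it off again, which rescues substrates, edits chains and returns free ubiquitin to the pool. Most belong to the USP, OTU and UCH cysteine protease families, with further JAMM metalloproteases and Josephin enzymes. In clear cell renal carcinoma the axis is of interest because VHL, which is lost in 786-O cells, is part of a ubiquitin ligase for the HIF alpha subunits, and several deubiquitinases bind VHL or act on HIF.

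The 6 libraries of polyadenylated RNA formed 3 groups of 2: 786-O cells given a non-targeting siRNA (NTC), cells given ALYREF siRNA5, and cells given ALYREF siRNA8. 786-O is an established human line of clear cell renal cell carcinoma, and ALYREF is an adaptor protein that helps hand finished messenger RNA to the nuclear export machinery. All groups, controls included, were transfected with the same lipid reagent, moved to fresh medium at 24 h and collected at 48 h. Both siRNAs were compared with the same NTC libraries, so the 2 comparisons are not independent of each other.

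The deposited tables hold, per gene, a mean normalized count over the libraries and a log2 fold change with its standard error (SE) and adjusted p from the authors' DESeq2 fit, with no value per library. Levels of the 3 groups were therefore rebuilt from the mean and the fold changes, and they carry no replicate spread of their own. A gene is called changed at an adjusted p under 0.05. What the p-values are set against is the variation among the duplicate libraries alone, possibly a technical one, and in RNA from a whole culture fewer cells of a kind and less RNA per cell cannot be told apart. ALYREF had rebuilt levels of 7711 normalized counts in NTC, 437 with siRNA5 and 604 with siRNA8. Its log2 changes in the authors' deposited tables were -4.14 and -3.67, with adjusted p listed as 0 in both. The kidney lineage factor PAX8 (mean 2354), vimentin (VIM, 53094) and EPAS1, which encodes HIF-2 alpha (2207), were present in the authors' deposited tables, against 67.3 for the epithelial gene EPCAM. The further markers CA9, PTPRC, PECAM1 and KRT5 had no values among the genes read here. Their levels could therefore not be given, and nothing is concluded from them.

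Deubiquitinase genes moved in both directions, mostly by less than 1.5-fold. With siRNA5, 19 members were higher and 14 lower, or 53.2% called, where 46.4% of all genes were called (24.4% higher and 22.0% lower) by the adjusted p in the authors' deposited table. With siRNA8, 16 were higher and 9 lower, or 40.3%, where 41.5% of all genes were called (21.0% higher and 20.5% lower) in the other deposited table of the authors. The shares of members called thus lay near those of all genes. The median log2 change of the members was 0.02 with siRNA5 and 0.04 with siRNA8, and that of all genes was 0.01 in both. The median absolute log2 change was 0.24 with siRNA5 and 0.19 with siRNA8, against 0.25 and 0.23 over all genes. USP32P2 with siRNA5 and OTUD4 with siRNA8 were the members that fell at least 2-fold, and none rose that far. Only 4 members had a mean below 50, and the median SE of a member was 0.090 with siRNA5 and 0.092 with siRNA8.

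**Figure D1:**
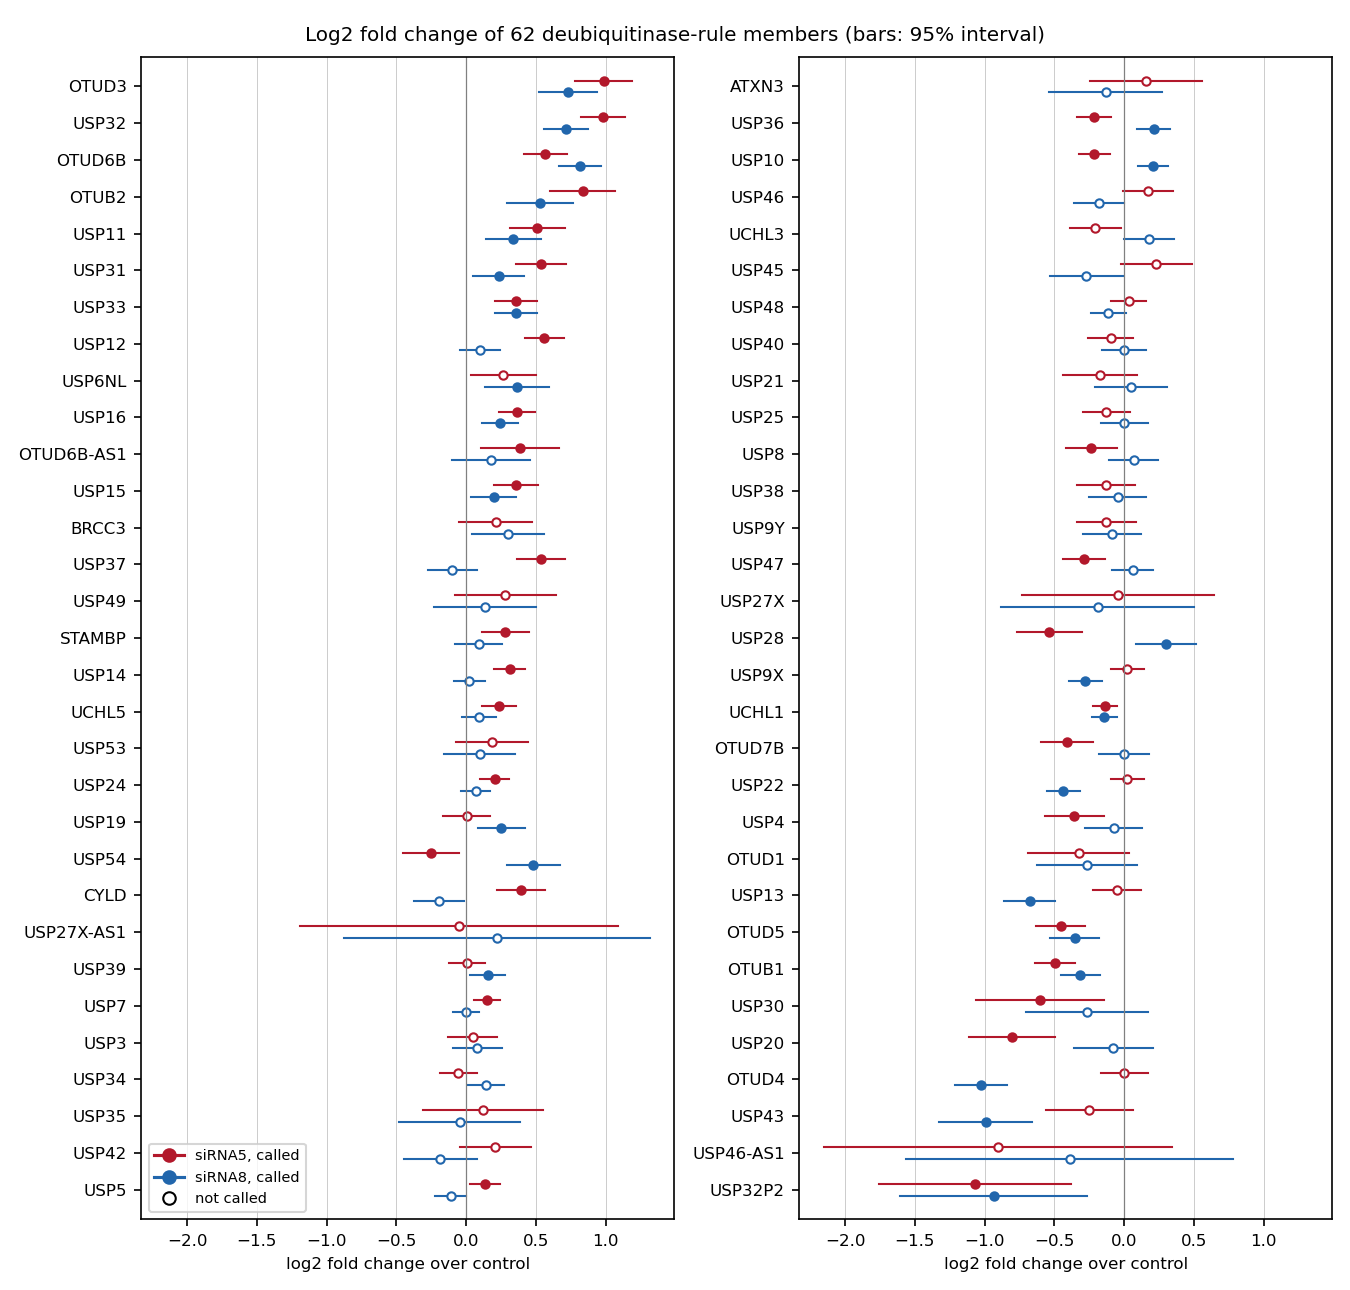
Log2 fold change over NTC of all 62 members with siRNA5 (red) and siRNA8 (blue), from the authors' deposited tables, sorted by the mean of both. Bars are 95% intervals from the deposited standard errors and filled points are called. OTUD3 and USP32 lie at the top, at 0.99 and 0.98 with siRNA5, and USP32P2 at the bottom, at -1.07.

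USP32, OTUD3 and OTUB2 rose with each siRNA. USP32 is a membrane-anchored protease of the Golgi that acts on the endosomal GTPase RAB7. Its rebuilt level was 619 in NTC, 1221 with siRNA5 and 1017 with siRNA8. The authors' deposited tables gave USP32 log2 changes of 0.98 (SE 0.081, adjusted p = 1.04e-31) and 0.72 (SE 0.082, adjusted p = 6.02e-17). OTUD3, a protease of the OTU family, went from 258 in NTC to 511 with siRNA5 and 427 with siRNA8. Its log2 changes in the authors' deposited tables were 0.99 (SE 0.11, adjusted p = 1.98e-19) and 0.73 (SE 0.11, adjusted p = 9.25e-11). OTUB2, the smaller relative of OTUB1, stood at 322, 575 and 465. The authors' deposited tables gave it 0.84 (SE 0.12, adjusted p = 2.67e-11) and 0.53 (SE 0.12, adjusted p = 6.01e-05). In all 3 genes both knockdown levels were above the control level. The direct comparison of the siRNAs, with an SE that is an upper bound, called none of them (adjusted p = 0.0636 for USP32, 0.189 for OTUD3 and 0.165 for OTUB2). With the control variance rebuilt, the same comparison called all 3, each higher or lower by the sign of its difference (adjusted p = 0.00179 for USP32, 0.0190 for OTUD3 and 0.0185 for OTUB2). Those differences were 0.26 for USP32, 0.26 for OTUD3 and 0.31 for OTUB2, siRNA5 minus siRNA8.

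OTUB1 and OTUD5 fell with each siRNA. OTUB1, an abundant enzyme that also restrains the E2 enzyme UBE2N without cutting ubiquitin, had rebuilt levels of 1208 in NTC, 856 with siRNA5 and 972 with siRNA8. Its log2 changes in the authors' deposited tables were -0.50 (SE 0.073, adjusted p = 1.00e-10) and -0.31 (SE 0.071, adjusted p = 5.26e-05). OTUD5, which trims chains from TRAF3 and so limits interferon signalling, stood at 789, 576 and 618. The authors' deposited tables gave it -0.45 (SE 0.091, adjusted p = 3.20e-06) and -0.35 (SE 0.089, adjusted p = 0.000331). UCHL1, the hydrolase best known from neurons, stood at 8237, 7494 and 7468, a change of -0.14 on the log2 scale in each of the authors' deposited tables (adjusted p = 0.00655 and 0.00513). As a share of NTC, OTUB1 stood at 70.9% with siRNA5 and 80.5% with siRNA8, OTUD5 at 73.0% and 78.3%, and UCHL1 at 91.0% and 90.7%.

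The 100 bases before the RefSeq start are shown for the genes called in the same direction with each siRNA, so that the rising and falling promoters can be read side by side. USP31 and USP32P2 were not matched and OTUD6B is not shown. The sequences are of the build GRCh38.p14, written along the transcribed strand, and capitals mark the motifs searched. Of the genes that rose, the bases of USP32 at chr17:60392134-60392233 (minus strand), OTUD3 at chr1:19882295-19882394 (plus strand), OTUB2 at chr14:94026240-94026339 (plus strand), USP11 at chrX:47232909-47233008 (plus strand) are shown first. They are followed by USP33 at chr1:77759853-77759952 (minus strand), USP16 at chr21:29024568-29024667 (plus strand), USP15 at chr12:62260304-62260403 (plus strand). Of the genes that fell, the bases are those of OTUB1 at chr11:63986338-63986437 (plus strand), OTUD5 at chrX:48958382-48958481 (minus strand), UCHL1 at chr4:41256828-41256927 (plus strand). The GENCODE 29 gene models of USP32, USP11, OTUB1 and UCHL1 begin further upstream, so for these genes the bases shown lie inside the gene's outer bounds. The bases shown for OTUB2, USP16, USP15 and OTUD5 overlap the gene model in part.
USP32: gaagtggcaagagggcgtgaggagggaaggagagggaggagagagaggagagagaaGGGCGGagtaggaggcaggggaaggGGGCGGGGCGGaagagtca
OTUD3: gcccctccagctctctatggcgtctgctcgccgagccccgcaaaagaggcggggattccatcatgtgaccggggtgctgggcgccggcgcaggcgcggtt
OTUB2: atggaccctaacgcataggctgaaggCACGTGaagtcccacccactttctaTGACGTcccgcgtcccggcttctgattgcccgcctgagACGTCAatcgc
USP11: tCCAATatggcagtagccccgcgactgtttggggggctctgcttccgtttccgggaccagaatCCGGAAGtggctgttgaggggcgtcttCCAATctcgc
USP33: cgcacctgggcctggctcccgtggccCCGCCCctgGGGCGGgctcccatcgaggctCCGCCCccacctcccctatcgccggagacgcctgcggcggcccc
USP16: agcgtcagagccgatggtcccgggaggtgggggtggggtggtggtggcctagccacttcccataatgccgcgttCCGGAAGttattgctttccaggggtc
USP15: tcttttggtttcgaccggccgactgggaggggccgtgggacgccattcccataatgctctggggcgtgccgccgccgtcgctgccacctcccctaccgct
OTUB1: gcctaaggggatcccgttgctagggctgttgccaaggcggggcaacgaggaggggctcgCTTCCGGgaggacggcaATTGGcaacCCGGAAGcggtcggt
OTUD5: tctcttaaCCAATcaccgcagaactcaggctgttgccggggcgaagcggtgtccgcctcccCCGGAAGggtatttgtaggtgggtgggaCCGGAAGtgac
UCHL1: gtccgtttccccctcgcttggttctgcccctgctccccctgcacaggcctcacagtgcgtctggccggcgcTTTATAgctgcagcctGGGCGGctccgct

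Motifs were searched on both strands: the GC box GGGCGG, the CCAAT box CCAAT, the ETS core CCGGAAG, the TATA box TATAAA, the E-box CACGTG and the cAMP response element core TGACGT. Within the bases shown, ETS cores and CCAAT boxes were in genes of both directions: OTUB1 and OTUD5 each held 2 ETS cores and 1 CCAAT box, USP11 held 1 ETS core and 2 CCAAT boxes, and USP16 held 1 ETS core. USP32 and USP33 each held 3 GC boxes, with a pair that overlap in USP32, and UCHL1 held 1 GC box and 1 TATA box. OTUB2 held 2 cAMP response element cores and 1 E-box, and OTUD3 and USP15 held none of the motifs. In the 250 bases before the start, 65 RefSeq windows of 46 deubiquitinase genes were set beside 13316 windows of the 9087 measured genes with a RefSeq entry. A GC box was in 72.3% of the deubiquitinase windows and 63.9% of those of measured genes, an ETS core in 18.5% against 14.5%, and a cAMP response element core in 12.3% against 9.54%. A CCAAT box was in 26.2% against 33.1%, a TATA box in 6.15% against 5.52% and an E-box in 6.15% against 8.37%. Median GC content was 68.8% against 64.8%. These are letter matches and not measured binding, and the shares were not tested. OTUD5 has a further RefSeq start, in whose last 100 bases no searched motif was found.

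OTUD6B, whose inherited loss causes a neurodevelopmental disorder, rose with each siRNA, to 1169 with siRNA5 and 1387 with siRNA8 from 788 in NTC. Its log2 changes in the authors' deposited tables were 0.57 (SE 0.078, adjusted p = 3.72e-12) and 0.82 (SE 0.077, adjusted p = 8.68e-25). The noncoding RNA OTUD6B-AS1 is transcribed from the neighbouring opposite strand and was higher with siRNA5, at 0.39 (adjusted p = 0.0162), and at 0.18 with siRNA8 (adjusted p = 0.327) in the authors' deposited tables. Whether HTSeq counted by strand is not stated in the labels or headers. The GENCODE 29 models of OTUD6B (chr8:91070196-91087095) and OTUD6B-AS1 (chr8:91059909-91070189) do not overlap. Only reads from beyond these bounds could therefore have been given to the wrong gene. USP32P2 is a partial copy of USP32, and its counts are uncertain because short reads can match both. It stood at 60.1 in NTC, 28.6 with siRNA5 and 31.4 with siRNA8, opposite in direction to USP32. The authors' deposited tables gave it -1.07 (SE 0.35, adjusted p = 0.00679) and -0.93 (SE 0.34, adjusted p = 0.0177).

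Further USP genes were higher with each siRNA, by smaller amounts. USP11, which acts in homologous recombination, had rebuilt levels of 424 in NTC, 604 with siRNA5 and 536 with siRNA8. USP31 had 457, 663 and 537, and USP33, a VHL-binding enzyme, had 931, 1192 and 1196. USP16, a protease for histone H2A, had 1233, 1586 and 1459, and USP15, which acts in TGF-beta signalling, had 798, 1022 and 915. For USP11 the authors' deposited tables gave 0.51 (SE 0.10, adjusted p = 2.75e-06) and 0.34 (SE 0.10, adjusted p = 0.00314), and for USP31 0.54 (SE 0.092, adjusted p = 4.33e-08) and 0.23 (SE 0.093, adjusted p = 0.0317). USP33 had 0.36 (SE 0.077, adjusted p = 1.91e-05) and 0.36 (SE 0.076, adjusted p = 1.57e-05) in the authors' deposited tables. The values of USP16 by the authors' deposited tables were 0.36 (SE 0.066, adjusted p = 2.49e-07) and 0.24 (SE 0.066, adjusted p = 0.000979), and those of USP15 were 0.36 (SE 0.082, adjusted p = 5.91e-05) and 0.20 (SE 0.082, adjusted p = 0.0402).

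**Figure D2:**
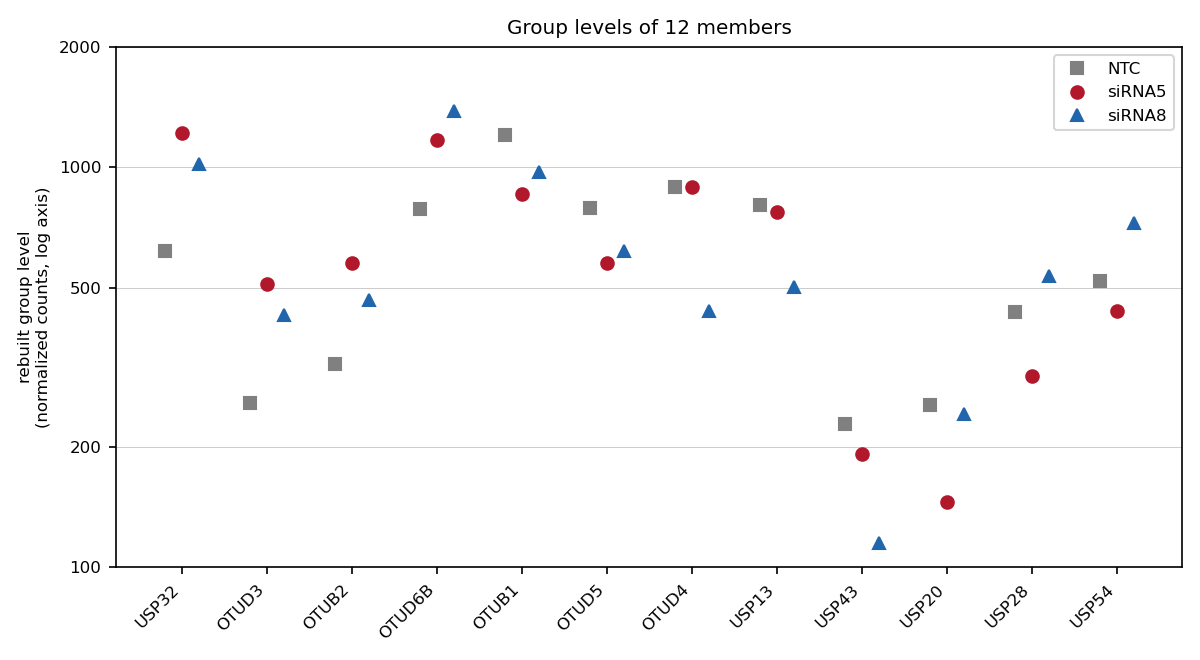
Rebuilt levels of 12 members in NTC (grey squares), siRNA5 (red circles) and siRNA8 (blue triangles), in normalized counts on a log axis, with no replicate spread. USP32 rises from 619 to 1221 and 1017, OTUD4 falls to 437 with siRNA8 and stays at 892 with siRNA5, and USP28 lies below its control level of 435 with siRNA5 and above it with siRNA8.

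The siRNAs were then compared directly, through the difference of their log2 changes. Of the members, 12 were higher with siRNA5 than with siRNA8 and 8 lower, or 32.3%, where 32.0% of all genes differed (17.2% higher and 14.8% lower). The median absolute difference was 0.25 for members and 0.26 for all genes. The SE of this test leaves out the controls that the siRNAs share and is an upper bound. With the control variance rebuilt from the tables, 21 members were higher and 15 lower, where 24.9% of all genes were higher and 23.2% lower.

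OTUD4 differed most. It lies at chr4:145110838-145180161 on the minus strand (GRCh38, GENCODE 29) and encodes a scaffold that brings other deubiquitinases to the ALKBH DNA repair enzymes. Its rebuilt level was 891 in NTC, 892 with siRNA5 and 437 with siRNA8, so that the siRNA8 level alone was low. The log2 changes in the authors' deposited tables were 0.00 (SE 0.087, adjusted p = 0.988) and -1.03 (SE 0.094, adjusted p = 3.71e-26). The difference was 1.03 (SE 0.13, adjusted p = 3.44e-14).

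Other members were low with siRNA8 alone. USP43 stood at 228 in NTC, 192 with siRNA5 and 115 with siRNA8, and the siRNAs differed by 0.74 (SE 0.23, adjusted p = 0.00632). USP13, a relative of USP5 that is known to act on MCL1, stood at 803, 775 and 502 and differed by 0.63 (SE 0.13, adjusted p = 7.89e-06). USP22, the histone H2B protease of the SAGA coactivator, stood at 3227, 3279 and 2387 and differed by 0.46 (SE 0.085, adjusted p = 9.75e-07). USP9X, a large enzyme that protects MCL1, stood at 2777, 2821 and 2288 and differed by 0.30 (SE 0.085, adjusted p = 0.00200). Against NTC, the authors' deposited table for siRNA8 gave -0.99 (SE 0.17, adjusted p = 5.32e-08) for USP43, -0.68 (SE 0.092, adjusted p = 2.76e-12) for USP13, -0.43 (SE 0.061, adjusted p = 1.45e-11) for USP22 and -0.28 (SE 0.060, adjusted p = 2.20e-05) for USP9X. In the authors' deposited table for siRNA5 none of these 4 was called, with -0.25 (SE 0.16, adjusted p = 0.198) for USP43, -0.05 (SE 0.088, adjusted p = 0.665) for USP13, 0.02 (SE 0.060, adjusted p = 0.783) for USP22 and 0.02 (SE 0.060, adjusted p = 0.788) for USP9X.

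USP12, USP37, CYLD, USP14 and USP5 rose with siRNA5, were not called with siRNA8, and differed between the siRNAs, but the rise of USP5 was no longer called after centring on the median gene (adjusted p = 0.0533). USP12, which works with the WD-repeat protein WDR48, stood at 952 in NTC, 1405 with siRNA5 and 1019 with siRNA8, a difference of 0.46 (SE 0.10, adjusted p = 5.37e-05). USP37, which acts on cyclin A, stood at 547, 794 and 511, a difference of 0.64 (SE 0.13, adjusted p = 4.79e-06). CYLD, a tumour suppressor that strips signalling chains in the NF-kB pathway, stood at 547, 720 and 478, a difference of 0.59 (SE 0.13, adjusted p = 2.92e-05). USP14, which sits on the proteasome, stood at 1972, 2450 and 2005, a difference of 0.29 (SE 0.080, adjusted p = 0.00162). USP5, which breaks down free ubiquitin chains, stood at 2080, 2285 and 1925, a difference of 0.25 (SE 0.080, adjusted p = 0.00838). Against NTC, the authors' deposited table for siRNA5 gave 0.56 (SE 0.072, adjusted p = 1.07e-13) for USP12, 0.54 (SE 0.088, adjusted p = 8.70e-09) for USP37, 0.40 (SE 0.088, adjusted p = 3.51e-05) for CYLD, 0.31 (SE 0.056, adjusted p = 1.93e-07) for USP14 and 0.14 (SE 0.056, adjusted p = 0.0359) for USP5. The authors' deposited table for siRNA8 gave 0.10 (SE 0.074, adjusted p = 0.293) for USP12, -0.10 (SE 0.091, adjusted p = 0.403) for USP37, -0.20 (SE 0.092, adjusted p = 0.0742) for CYLD, 0.02 (SE 0.057, adjusted p = 0.771) for USP14 and -0.11 (SE 0.057, adjusted p = 0.102) for USP5. USP45 and USP46 were called only in the direct comparison, at 0.50 (SE 0.19, adjusted p = 0.0245) and 0.35 (SE 0.13, adjusted p = 0.0240). Their rebuilt levels were 255 in NTC, 299 with siRNA5 and 211 with siRNA8 for USP45, and 742, 836 and 656 for USP46. In the authors' deposited tables, USP45 had 0.23 (SE 0.13, adjusted p = 0.133) and -0.27 (SE 0.13, adjusted p = 0.0913), and USP46 had 0.17 (SE 0.090, adjusted p = 0.109) and -0.18 (SE 0.092, adjusted p = 0.107).

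The reverse pattern was seen in USP20, OTUD7B, USP47 and UCHL3. USP20, a VHL-binding enzyme that acts on HIF-1 alpha, stood at 254 in NTC, 146 with siRNA5 and 241 with siRNA8, a difference of -0.73 (SE 0.21, adjusted p = 0.00340). OTUD7B, a regulator of NF-kB also known as Cezanne, stood at 584, 440 and 583, a difference of -0.41 (SE 0.13, adjusted p = 0.00886). USP47, an enzyme of base excision repair, stood at 1577, 1291 and 1646, a difference of -0.35 (SE 0.11, adjusted p = 0.00517). UCHL3 stood at 721, 625 and 816, a difference of -0.38 (SE 0.13, adjusted p = 0.0145), and neither siRNA alone was called for it in the authors' deposited tables, with -0.21 (SE 0.095, adjusted p = 0.0637) and 0.18 (SE 0.092, adjusted p = 0.107). Against NTC, the authors' deposited table for siRNA5 gave -0.80 (SE 0.16, adjusted p = 2.10e-06) for USP20, -0.41 (SE 0.096, adjusted p = 9.10e-05) for OTUD7B and -0.29 (SE 0.077, adjusted p = 0.000627) for USP47, all lower than in the control. The authors' deposited table for siRNA8 gave -0.08 (SE 0.14, adjusted p = 0.700) for USP20, 0.00 (SE 0.091, adjusted p = 0.989) for OTUD7B and 0.06 (SE 0.075, adjusted p = 0.545) for USP47, and called none of these 3.

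USP28, USP54, USP10 and USP36 were called in opposite directions by the siRNAs. USP28, which counters FBXW7 on MYC, stood at 435 in NTC, 300 with siRNA5 and 536 with siRNA8, with -0.54 (SE 0.12, adjusted p = 3.72e-05) and 0.30 (SE 0.11, adjusted p = 0.0196) by the authors' deposited tables. USP54 stood at 520, 436 and 726, with -0.25 (SE 0.10, adjusted p = 0.0303) and 0.48 (SE 0.097, adjusted p = 4.09e-06) by the authors' deposited tables. USP10, which binds the stress granule proteins G3BP, stood at 2287, 1973 and 2646, with -0.21 (SE 0.057, adjusted p = 0.000673) and 0.21 (SE 0.055, adjusted p = 0.000629) by the authors' deposited tables. USP36, a nucleolar enzyme that acts on MYC, stood at 1639, 1415 and 1899, with -0.21 (SE 0.062, adjusted p = 0.00206) and 0.21 (SE 0.060, adjusted p = 0.00160) by the authors' deposited tables. The differences were -0.84 for USP28 (SE 0.16), -0.74 for USP54 (SE 0.14) and -0.42 for both USP10 (SE 0.079) and USP36 (SE 0.086), with adjusted p from 1.08e-06 to 8.24e-06.

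**Figure D3:**
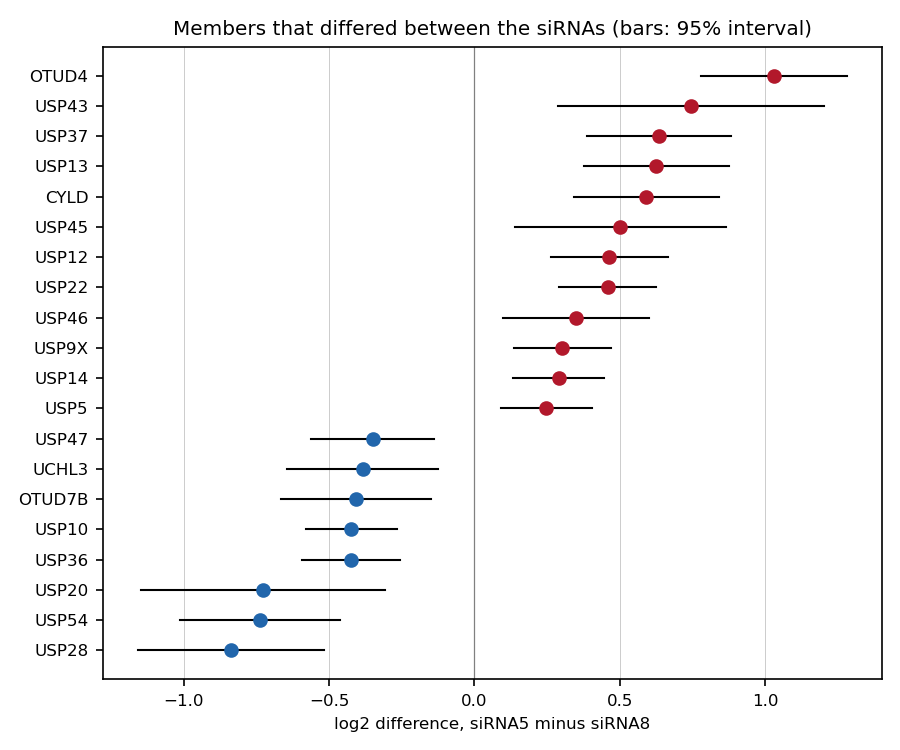
Difference in log2 change, siRNA5 minus siRNA8, of the 20 members called in the direct comparison, with 95% intervals. Red points are higher and blue points lower with siRNA5. OTUD4 is the highest at 1.03 and USP28 the lowest at -0.84.

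By family, the USP proteases including CYLD (43 genes) had 13 higher and 9 lower with siRNA5 and 12 higher and 4 lower with siRNA8. Their called shares, 51.2% and 37.2%, lay near the 46.4% and 41.5% of all genes. Of the OTU proteases, 8 of 10 listed were measured: 3 were higher and 3 lower with each siRNA, and their median absolute log2 change was 0.48 with siRNA5 and 0.44 with siRNA8. Those 8 are all OTUB or OTUD genes, and OTU enzymes with other symbols, such as YOD1, are counted below among the other deubiquitinases. Of the 3 UCH genes, UCHL1 fell with each siRNA and UCHL5, a proteasome-bound enzyme, rose with siRNA5 at 0.23 (adjusted p = 0.000584) in the authors' deposited table. Of the metalloproteases, STAMBP, which acts at the ESCRT sorting machinery, rose with siRNA5 at 0.28 (adjusted p = 0.00339), and BRCC3, a subunit of the BRCA1-A complex, was not called with either siRNA (adjusted p = 0.190 and 0.0532) in the authors' deposited tables. The Josephin enzyme ATXN3 was not called (0.16 and -0.13, adjusted p = 0.566 and 0.644, in the authors' deposited tables).

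Counts by role are of few genes each, and are to be read beside all genes, of which 24.4% were higher and 22.0% lower with siRNA5, and 21.0% higher and 20.5% lower with siRNA8. Of the 9 members linked to HIF or VHL, 2 were higher and 5 lower with siRNA5, and 3 were higher and 2 lower with siRNA8. The lower genes with siRNA5 were USP20, USP28, OTUD7B, USP8 and UCHL1, and with siRNA8 they were UCHL1 and USP9X. USP8, which protects receptors at endosomes, had a log2 change of -0.24 with siRNA5 by the authors' deposited table (adjusted p = 0.0262). Of the 8 measured members of the p53 and MDM2 list, 3 were higher and 4 lower with siRNA5 and 2 were higher and 2 lower with siRNA8. USP7, the protease of MDM2 and p53, was at 0.15 (adjusted p = 0.00529) in the authors' deposited table for siRNA5 and at 0.00 (adjusted p = 0.982) in that for siRNA8. USP4 fell by 0.36 on the log2 scale with siRNA5 (adjusted p = 0.00297) in the authors' deposited table, and USP24 was at 0.20 (adjusted p = 0.000541). Of the 6 members tied to splicing and nuclear RNA, 1 was higher and 2 lower with siRNA5 and 3 higher and 0 lower with siRNA8 by the authors' DESeq2 test, with 0 lower at an unadjusted p under 0.05 as well. USP39, an inactive member that is part of the spliceosome's tri-snRNP, was at 0.15 with siRNA8 (adjusted p = 0.0402) in the authors' deposited table.

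In the remaining role lists the same shares of all genes, 46.4% called with siRNA5 and 41.5% with siRNA8, stand beside the counts. Of the 9 NF-kB members, 2 were higher and 3 lower with siRNA5 and 1 higher and 2 lower with siRNA8. Of the 9 DNA damage members, 1 was higher and 3 lower with siRNA5 and 2 higher and 1 lower with siRNA8. Of the 8 measured histone H2A and H2B proteases, 2 were higher with siRNA5, and 1 was higher and 1 lower with siRNA8. Both proteasome-bound members, USP14 and UCHL5, were higher with siRNA5 and neither was called with siRNA8 by the authors' DESeq2 test, nor passed at an unadjusted p under 0.05 there. Of the 4 mitochondrial members, USP15 was higher and USP30 and USP8 lower with siRNA5, and USP15 was higher with siRNA8. USP30, which opposes Parkin on the outer membrane, fell by 0.60 on the log2 scale with siRNA5 (SE 0.23, adjusted p = 0.0247) and was at -0.26 with siRNA8 (adjusted p = 0.358) in the authors' deposited tables. USP19, an enzyme anchored in the endoplasmic reticulum, was at 0.25 with siRNA8 (adjusted p = 0.00905) in the authors' deposited table, and USP6NL was at 0.37 (adjusted p = 0.00673). Of the 4 measured members linked to MYC and the cell cycle, USP37 was higher and USP28 and USP36 lower with siRNA5, whereas USP28 and USP36 were higher and USP22 lower with siRNA8. Of the 4 endosomal members, STAMBP and USP32 were higher and USP8 lower with siRNA5, and USP32 and USP6NL were higher with siRNA8. Of the 3 members linked to MCL1 and apoptosis, USP13 and USP9X were lower with siRNA8. With siRNA5, 0 of these 3 were called by the authors' DESeq2 test and 0 passed at an unadjusted p under 0.05.

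Close relatives were called in opposite directions with siRNA5 for OTUB1 and OTUB2, for USP20 and USP33, and for USP4 against USP11 and USP15. With siRNA8 this held for OTUB1 and OTUB2 alone, as USP20 and USP4 were not called. OTUB1 and OTUB2 lay 1.33 apart on the log2 scale with siRNA5 and 0.84 apart with siRNA8. USP20 and USP33, both VHL-binding, lay 1.16 and 0.44 apart, and USP4, USP11 and USP15 spread over 0.87 and 0.41. The 95% intervals of a group's members were apart in 5 of 10 groups with siRNA5 and in 6 of 10 with siRNA8. Apart does not mean opposite, as USP25 and USP28 were apart with siRNA5 and both below NTC. No such share was taken over sets of unrelated genes, so these counts show nothing particular to relatives. The 10 groups of relatives were formed with the values known and were not tested. USP9X and USP9Y are near-identical in part, so their reads are uncertain.

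**Figure D4:**
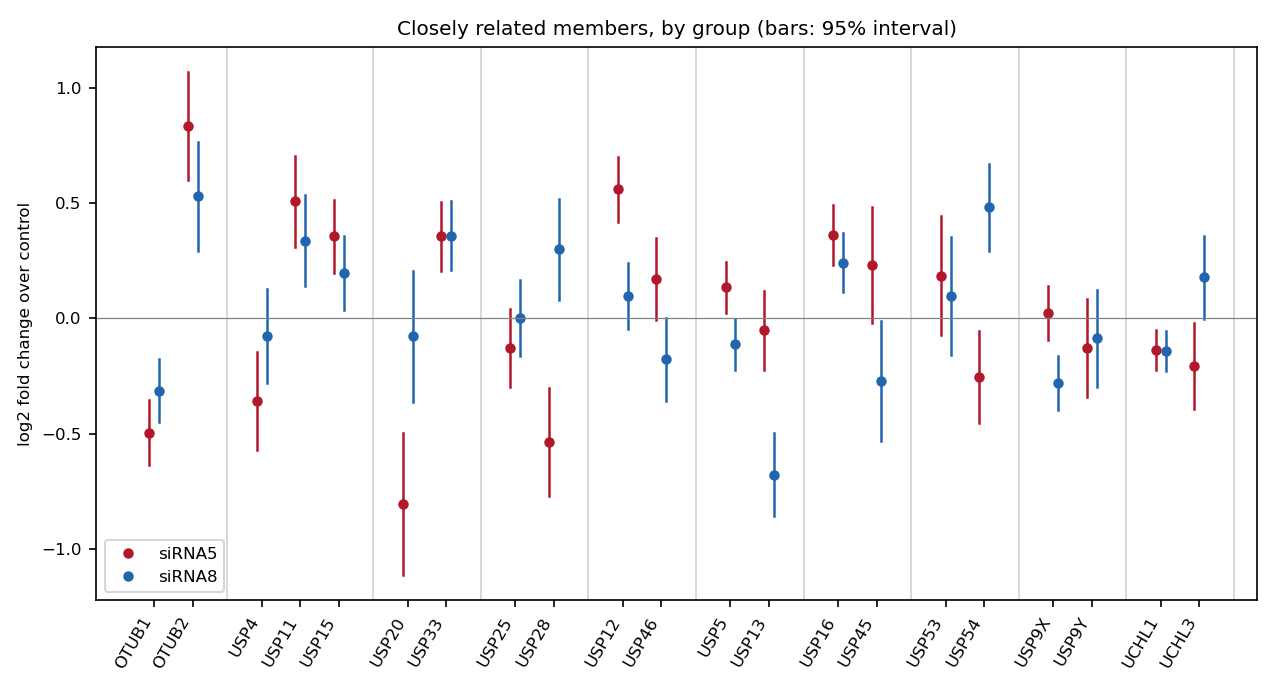
Log2 fold change over NTC of members in 10 groups of close relatives with siRNA5 (red) and siRNA8 (blue), with 95% intervals from the deposited standard errors. OTUB1 and OTUB2, at the left, lie 1.33 apart with siRNA5.

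A number of members were not called at all. With neither siRNA were 21 members called (33.9%, against 36.5% of all genes), and 18 of 62 were called in no comparison (against 35.5% of all genes), 6 of them with a mean under 150. USP25, USP3, USP34, USP38, USP40, USP48 and USP9Y, 7 in all, had 95% intervals within 0.35 of zero on the log2 scale for both siRNAs. USP27X, USP27X-AS1 and USP46-AS1 had SE of 0.35 or more, so changes of that size were not detectable for them. Per kilobase of transcript, UCHL1 had the highest rebuilt NTC level at 10493 normalized counts, followed by UCHL5 at 1154, OTUB1 at 868, UCHL3 at 854 and USP10 at 842.

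Other genes of the ubiquitin system were taken from lists and are to be read beside the 46.4% of all genes called with siRNA5 and the 41.5% with siRNA8. Of 25 other deubiquitinases, 18 were measured, with 7 higher and 5 lower with siRNA5 and 2 higher and 4 lower with siRNA8. MINDY2, which trims long chains, was at 1.43 (SE 0.11, adjusted p = 3.51e-35) and YOD1, an OTU enzyme of the VCP pathway, at 1.09 (SE 0.091, adjusted p = 2.74e-31) with siRNA5 in the authors' deposited table. With siRNA5 the authors' deposited table further had JOSD1 at -0.88 (SE 0.075, adjusted p = 3.03e-30), and with siRNA8 YOD1 at 0.30 (SE 0.094, adjusted p = 0.00415), STAMBPL1 at 0.27 (SE 0.10, adjusted p = 0.0204) and MPND at -0.59 (SE 0.18, adjusted p = 0.00470). JOSD2 was at -1.12 with siRNA5 (adjusted p = 2.28e-08) and -0.67 with siRNA8 (adjusted p = 0.000618) in the authors' deposited tables. Of 12 proteases for SUMO, NEDD8 and UFM1, 3 were higher and 3 lower with siRNA5 and 2 higher and 1 lower with siRNA8. The authors' deposited table for siRNA5 had DESI2 at 1.14 (SE 0.066, adjusted p = 1.47e-63), SENP7 at 0.67 (SE 0.14, adjusted p = 5.69e-06), DESI1 at -0.55 (SE 0.064, adjusted p = 2.14e-16) and UFSP1 at -2.57 (SE 0.80, adjusted p = 0.00399), the last with a mean of 14.9. That for siRNA8, also the authors' deposited table, had DESI2 at 0.90 (SE 0.067, adjusted p = 4.39e-39), SENP1 at 0.31 (SE 0.094, adjusted p = 0.00355) and DESI1 at -0.91 (SE 0.065, adjusted p = 2.99e-42).

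Of 31 E2 conjugating enzymes, 16 were higher and 3 lower with siRNA5, and 8 were higher and 8 lower with siRNA8. Over all genes, 24.4% were higher and 22.0% lower with siRNA5. Tested against an absolute log2 change of 0.25, 4 of the E2 genes were higher and 1 lower with siRNA5, where 7.42% of all genes were higher and 7.26% lower. UBE2W, which modifies protein amino termini, was at 0.78 with siRNA5 (adjusted p = 8.58e-17) and 0.55 with siRNA8 (adjusted p = 1.65e-08) in the authors' deposited tables. UBE2D2 went in opposite directions there, at 0.20 with siRNA5 (adjusted p = 0.000136) and -0.79 with siRNA8 (adjusted p = 4.19e-52). The authors' deposited tables also had UBE2Q2 at 0.70 (SE 0.095, adjusted p = 2.84e-12) and UBE2H at -0.58 (SE 0.060, adjusted p = 3.37e-21) with siRNA5, and UBE2L6 at 0.84 (SE 0.14, adjusted p = 2.35e-08) and UBE2E2 at 0.58 (SE 0.13, adjusted p = 2.31e-05) with siRNA8. With the other siRNA, UBE2H, UBE2L6 and UBE2E2 were called in the same direction (-0.16, 0.56 and 0.40), and UBE2Q2 was not called (-0.01). UBE2N, the E2 held by OTUB1, was at -0.36 and -0.67 (adjusted p = 3.04e-09 and 1.46e-28) in the authors' deposited tables. Of 23 measured partners of members, 7 were higher and 4 lower with siRNA5 and 4 higher and 6 lower with siRNA8. By the authors' deposited tables, siRNA5 gave ATXN7 at 0.44 (SE 0.11, adjusted p = 0.000167) and ABRAXAS1 at -0.64 (SE 0.15, adjusted p = 0.000143), and siRNA8 gave BABAM2 at 0.56 (SE 0.087, adjusted p = 1.15e-09) and HGS at 0.28 (SE 0.057, adjusted p = 7.84e-06). WDR48, the activator of USP12 and USP46, was at 0.39 with siRNA5 (adjusted p = 0.000285) and 0.23 with siRNA8 (adjusted p = 0.0445), and BRCA1 at -0.55 and -0.42, in the authors' deposited tables. The call of WDR48 with siRNA8 lies close to the threshold. After centring on the median gene, 2 partners rather than 4 were higher with siRNA8. Of 6 ubiquitin and E1 genes, 3 fell with siRNA5 and none was called with siRNA8 by the authors' DESeq2 test, where 0 also passed at an unadjusted p under 0.05. UBA1, the main E1, was at -0.36 with siRNA5 (adjusted p = 8.82e-16) in the authors' deposited table.

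Transcript composition was read from the GENCODE 29 annotation for the 57 deubiquitinase genes. Their median transcript was 4921 nt long with 16 exons, against 3220 nt and 9 exons for 10935 protein-coding genes. Median GC content was 43.0% in those higher with siRNA5, 50.0% in those lower and 44.0% in those not called. With siRNA8 the medians were 45.7%, 52.8% and 43.0%. Spearman's rho between GC content and log2 change was -0.39 with siRNA5 and -0.12 with siRNA8 across the 57 genes, and -0.27 and -0.18 across all protein-coding genes. These are descriptions across genes that share the same libraries, and the part of composition in the changes was not tested.

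**Figure D5:**
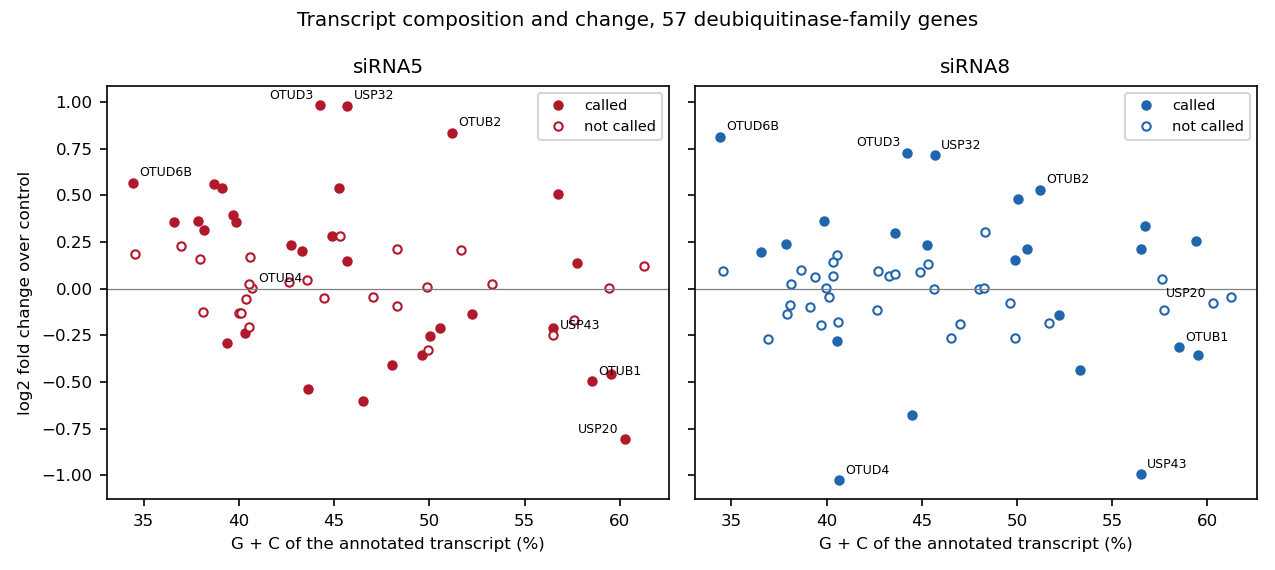
Log2 fold change over NTC against the GC content of the annotated transcript for 57 deubiquitinase-family genes, with siRNA5 (left) and siRNA8 (right). Filled points are called. With siRNA5 the called genes that rose have a median GC content of 43.0% and those that fell 50.0%.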

How the data were processed

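RNA-seq of 6 libraries was read from 2 result tables, 1 per siRNA. The submitters' processing notes name hg19 and the tools STAR, Picard, HTSeq and DESeq2, with no version. The authors' values per row are, per the file headers, a signal that is a mean normalized count, a log2 fold change with its standard error, a Wald score, and raw and adjusted p-values. A filter, shrinkage and depth per library are not given in the sources used here. Rows for reads without a gene (7.85% of the sum of means) were left out. Group levels were rebuilt from the mean and both fold changes. For siRNA5 against siRNA8, the gap between both log2 changes was divided by the square root of the sum of their squared SE (normal, two-sided, Benjamini-Hochberg over 11679 genes), tested on simulated data. Intervals are 95%. The members and lists were chosen with earlier results of these data known. By rule, full values go to members called with both siRNAs or in the direct comparison, the 5 largest called rises and falls per siRNA, and up to 2 called rises and falls per list. The design assumed values per library where possible. Features came from GENCODE 29 (GRCh38), matched by symbol for 97.9% of genes. Python 3.11.15, pandas 2.3.3, numpy 2.4.6, scipy 1.17.1 and matplotlib 3.10.9 were used. The stricter threshold, a minimum mean, centring, a minimum change and a rebuilt control variance were the alternatives.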

Additional observations from a re-analysis of the deposited data

Results flagged for a closer look

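USP28, USP54, USP10 and USP36 changed in opposite directions with the siRNAs against the same NTC libraries, and the direct test called each difference. The log2 difference, siRNA5 minus siRNA8, was -0.84 for USP28, -0.74 for USP54, -0.42 for USP10 and -0.42 for USP36, with adjusted p from 1.08e-06 to 8.24e-06 by the normal test across all genes. At an adjusted p under 0.01, USP28 with siRNA8 and USP54 with siRNA5 were no longer called. Tested against an absolute log2 change of 0.25, none of these genes was called with either siRNA. The differences of USP10 (adjusted p = 0.198) and USP36 (adjusted p = 0.269) were then not called either.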

How the results depend on the processing

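Counts of members stayed within 1.5 times at an adjusted p under 0.01, with genes of a mean of at least 50, after centring on the median gene, and without the 5 rows that are no deubiquitinase gene, which was chosen after seeing the data. When the change was tested against an absolute log2 value of 0.25, 7 members were higher and 2 lower with siRNA5, 3 higher and 4 lower with siRNA8, and 3 higher and 2 lower in the direct comparison. With the control variance rebuilt, 21 were higher and 15 lower in the direct comparison. Among the members, centring ended the calls of USP5 with siRNA5 (adjusted p = 0.0533) and USP39 with siRNA8 (adjusted p = 0.0505). No paired analysis was possible because the columns carry no values per library. For the same reason leaving out each replicate, the replicate block and an edgeR fit were not run.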

Other observations

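USP1 and USP18, which the symbol rule leaves out, had log2 changes of 0.35 and 0.46 with siRNA5 and of -0.13 and 0.53 with siRNA8, per the authors' deposited tables. USP1, the enzyme of the Fanconi anaemia pathway, was called with each siRNA (adjusted p = 2.11e-09 and 0.0415), and USP18, the interferon-induced protease for ISG15, with neither (adjusted p = 0.139 and 0.0842).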
